A study of Mus musculus with 10 samples.

Results

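The alpha-1 subunits of voltage-gated calcium channels were followed in cultured mouse cortical neurons that received BDNF, the histone variant H2BE, or both. The genes were chosen by symbol alone, as Cacna1a, Cacna1b, Cacna1c, Cacna1d, Cacna1e, Cacna1g, Cacna1h and Cacna1i. They are 8 of the 21862 genes in the deposited normalized table, and all 8 passed the filter on low counts that left 13452 genes for testing.

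Neurons came from the cortex of wild-type C57BL/6J mouse embryos at day E16.5, and AraC, a drug that kills dividing cells, was given at 0.5 µM on day 3 to 4 in culture. All cultures then received a lentivirus, either a control virus or one that expresses H2BE from a constitutively active promoter, a promoter that is on without a stimulus. BDNF, a neurotrophin that signals through the receptor TrkB, was added or withheld, and polyA RNA was sequenced 24 h later. The groups were control virus without BDNF (Control, 3 libraries), control virus with BDNF (BDNF, 3 libraries), H2BE virus without BDNF (H2BE, 2 libraries) and H2BE virus with BDNF (H2BE-BDNF, 2 libraries). Replicate 3 of Control held more counts than replicate 1 at 0 genes, and so did replicate 3 of BDNF. Each was counted with its replicate 1 as 1 sample, so every group has n = 2. Printed CPM levels average the pair, whereas the tests used replicate 1, so a tested fold change can differ slightly from the ratio of the levels. Nothing in the labels ties a replicate to a culture or litter of its own, so each p-value reflects the spread between these samples, which may be technical.

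The alpha-1 subunit is the large membrane protein that forms the calcium pore and senses voltage. L-type channels (Cacna1c, Cacna1d) sit mostly on cell bodies and dendrites and couple calcium entry to gene expression, P/Q-, N- and R-type channels (Cacna1a, Cacna1b, Cacna1e) feed transmitter release at nerve terminals, and T-type channels (Cacna1g, Cacna1h, Cacna1i) open near the resting potential and shape burst firing. Beta and alpha2delta subunits bring the high-voltage channels to the membrane and tune their gating.

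Total counts per library ran from 5058074 to 14142545. The RNA of H2bc21, the gene of H2BE, was 5.32 and 5.22 CPM in the Control samples and 42.6 and 35.6 CPM in the H2BE samples (CPM, counts scaled to library depth). With BDNF it was 3.88 and 4.09 CPM under the control virus and 31.98 and 35.1 CPM under the H2BE virus, so the H2BE libraries went with their labels. Of 4 general neuronal markers, Map2 rose with BDNF under the control virus (means of 1744 and 2639 CPM). Tubb3 (1302 and 955 CPM) and Rbfox3 (88.2 and 59.3 CPM) fell. The 4 summed to 3716 to 4294 CPM over all samples. Excitatory markers (6 genes) summed to 712 to 848 CPM and interneuron markers (8 genes) to 1808 to 2264 CPM. Both lists held changes in both directions. From Control to BDNF, Slc17a6 rose (means of 48.0 and 108 CPM) and Neurod6 fell (168 and 99.5 CPM). Gad2 likewise rose (325 and 452 CPM) and Sst fell (641 and 482 CPM). Progenitor markers (8 genes) summed to 106 to 119 CPM in the samples without BDNF and 230 to 244 CPM in those with BDNF. Of these sums Vim made up a mean of 63.4 CPM in Control and 174 CPM in BDNF. Not all of these markers rose. Eomes went from a mean of 9.98 CPM in Control to 4.42 CPM in BDNF, and Pax6 from 4.26 to 3.00 CPM. Microglial markers (6 genes, with Tmem119 at 0 in Control, BDNF and H2BE) summed to 4.74 to 7.30 CPM without BDNF and 19.6 to 22.0 CPM with it, of which Cd68 made up means of 4.85 and 3.51 CPM without and 17.7 and 18.5 CPM with BDNF, and P2ry12 was under 1 CPM in every sample. Oligodendrocyte-lineage markers (6 genes, with Sox10 at 0 in the same groups) summed to 32.2 to 41.5 CPM without and 62.5 to 77.5 CPM with BDNF, with Mbp at a mean of 19.8 CPM in Control and 51.8 CPM in BDNF. The part of these cells in the BDNF results below was not tested, and in bulk RNA fewer cells of a type and less RNA per cell cannot be told apart.

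All 8 genes are protein coding and lie on different chromosomes (GENCODE M21, build GRCm38, which is mm10). Cacna1a spans chromosome 8 from 84388440 to 84640246 on the plus strand, and Cacna1i spans chromosome 15 from 80287238 to 80398279, also on the plus strand. The other 6 are on the minus strand: Cacna1b on chromosome 2 (24603887 to 24763152), Cacna1c on chromosome 6 (118587240 to 119196418), Cacna1d on chromosome 14 (30039939 to 30491455), Cacna1e on chromosome 1 (154390731 to 154884501), Cacna1g on chromosome 11 (94408391 to 94474198) and Cacna1h on chromosome 17 (25374285 to 25433783). The longest annotated transcript was 7926 bases for Cacna1a, the shortest of the set, and 14921 bases for Cacna1e, the longest. The GC content of their exons ran from 48.3% in Cacna1e to 59.95% in Cacna1h. Exon bases are shared with an opposite-strand gene in Cacna1a (435 bases with Gm16183), Cacna1d (589 with Chdh) and Cacna1h (158 with Tpsg1). Over all 10 libraries those partners held 55, 9 and 16 counts.

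RefSeq (GRCm38.p6) gave upstream sequence for 5 of the 8 genes, at 8 start sites. No entry was held for Cacna1a, Cacna1g and Cacna1h. The 250 bases before the start are shown for Cacna1i and Cacna1d, both of which rose with BDNF under the control virus, and for Cacna1b, which did not pass the test. Capitals mark the motifs found.
Cacna1i, chr15:80286988-80287237, plus strand: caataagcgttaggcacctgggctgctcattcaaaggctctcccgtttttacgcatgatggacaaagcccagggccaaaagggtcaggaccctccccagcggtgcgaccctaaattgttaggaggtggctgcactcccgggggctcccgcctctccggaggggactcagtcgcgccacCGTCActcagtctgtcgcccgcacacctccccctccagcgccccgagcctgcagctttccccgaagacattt
Cacna1d start site 2, chr14:30353487-30353736, minus strand: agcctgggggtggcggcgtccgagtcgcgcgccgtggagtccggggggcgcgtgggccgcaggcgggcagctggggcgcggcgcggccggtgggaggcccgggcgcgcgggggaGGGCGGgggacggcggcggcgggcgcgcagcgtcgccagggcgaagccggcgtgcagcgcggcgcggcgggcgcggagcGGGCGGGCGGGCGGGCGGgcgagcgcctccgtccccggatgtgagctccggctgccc
Cacna1b, chr2:24763153-24763402, minus strand: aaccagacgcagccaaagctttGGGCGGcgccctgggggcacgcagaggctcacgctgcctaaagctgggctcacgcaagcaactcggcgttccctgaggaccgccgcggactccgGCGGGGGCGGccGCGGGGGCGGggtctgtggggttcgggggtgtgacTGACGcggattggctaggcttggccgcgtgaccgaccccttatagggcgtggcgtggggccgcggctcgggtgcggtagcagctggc
The motifs searched, on both strands, were the CRE (TGACGTCA), its core (TGACG), the AP-1 site (TGANTCA), 2 EGR sites (GCGTGGGCG and the G-rich GCGGGGGCG), the GC box (GGGCGG), the E-box (CACGTG) and the TATA box (TATAAA). The Cacna1i window held 1 CRE core, read as CGTCA on the printed strand, 68 to 72 bases before the start. A CRE core lies in 17.8% of the 32817 mouse windows of that length. The Cacna1d window shown, at start site 2, held 5 GC boxes, 4 of which overlap between 40 and 57 bases before the start. A GC box lies in 32.7% of windows. Start site 1 of Cacna1d, not shown, held no GC box but 3 TATA box matches, and a TATA box lies in 12.4% of windows. The Cacna1b window held 3 GC boxes, 2 of which overlap the 2 G-rich EGR sites, and 1 CRE core 83 to 87 bases before the start. The G-rich EGR letters occur in 2.57% of windows. A match is a description of letters, not of a bound site.

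Per kb of exon, the transmitter-release channels Cacna1b and Cacna1a led the family in Control. Cacna1b, the N-type pore, was at 17.7 and 18.2 CPM per kb of merged exons, and Cacna1a, the P/Q-type pore, at 13.9 and 14.5. Next came the T-type genes Cacna1h (7.20 and 8.37 CPM per kb), Cacna1i (6.39 and 7.57) and Cacna1g (5.05 and 5.42). Of the neighbours in this order only Cacna1h and Cacna1i overlapped. Cacna1e, the R-type pore, was at 4.93 and 4.76 CPM per kb, and the L-type genes were lowest, with Cacna1c at 2.85 and 3.21 and Cacna1d at 2.30 and 2.01. Summed by class, the release channels held 59.5% of the family's total of 62.2 CPM per kb in Control, the T-type genes 32.1% and the L-type genes 8.34%. With the longest transcript as the length Cacna1a (20.1 and 20.8 CPM per kb) stood above Cacna1b (18.1 and 18.6), and Cacna1e moved up to the fourth place, so the order of these genes depends on the length used.

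By merged exons the order changed with BDNF. In the BDNF samples Cacna1a (21.8 and 21.9 CPM per kb of merged exons) stood above Cacna1b (20.5 and 19.0), and Cacna1i (13.7 and 12.1) above Cacna1h (8.63 and 6.17). The same order held in H2BE-BDNF, where Cacna1a was at 19.2 and 18.9 and Cacna1b at 18.3 and 18.7 CPM per kb. In H2BE, without BDNF, Cacna1b (22.3 and 19.1) was again first and Cacna1a (17.8 and 16.54) next. With the longest transcript as the length, Cacna1a was first and Cacna1b next in all 4 groups. By that length too, Cacna1i stood above Cacna1h only in the groups with BDNF. By merged exons Cacna1g went from the fifth place in Control and H2BE to the seventh in both BDNF groups, where its samples overlapped those of Cacna1c (BDNF) or Cacna1d (H2BE-BDNF). The class shares moved little, with the release channels at 60.1% in BDNF, 58.1% in H2BE and 58.7% in H2BE-BDNF. The T-type share was 30.4%, 32.6% and 31.3%.

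**Figure D1:**
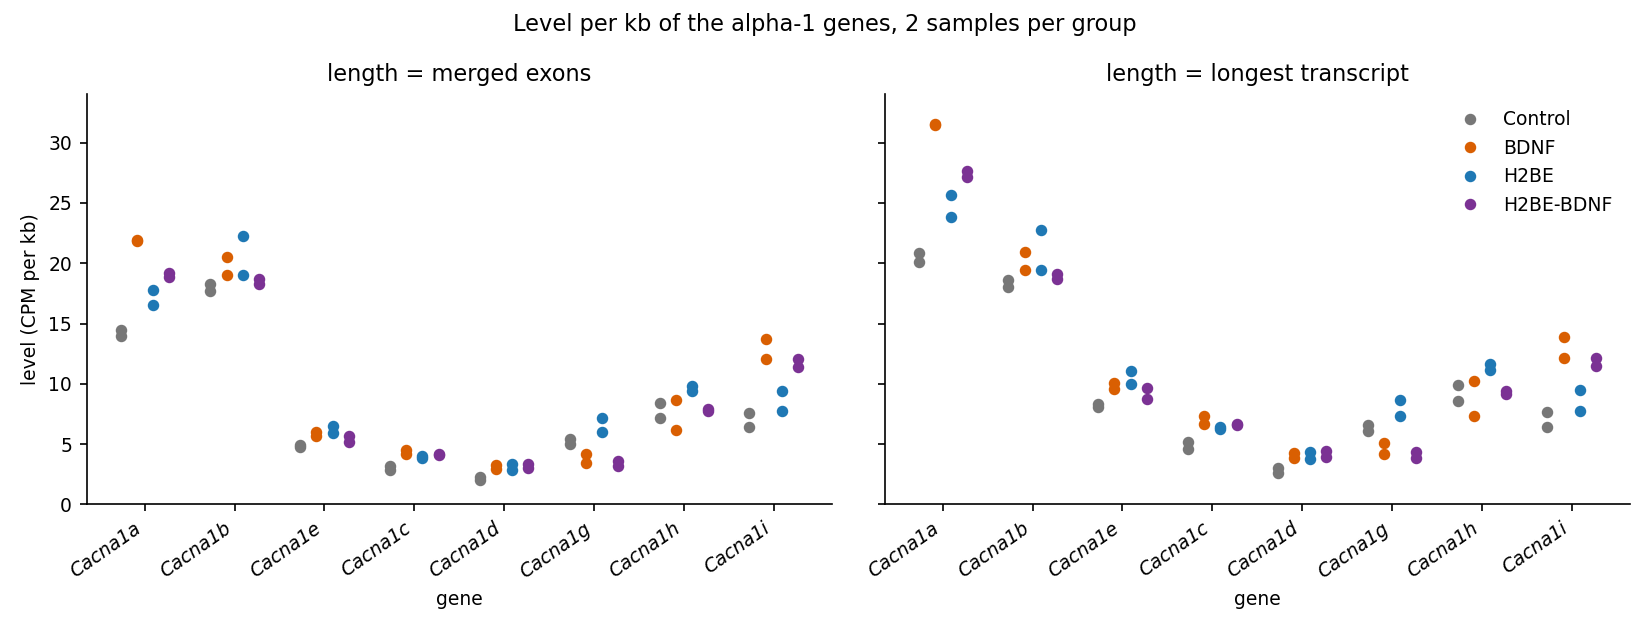
Level per kb (CPM per kb, linear axis) of each alpha-1 gene, with merged exons (left) or the longest transcript (right) as the length; each point is 1 sample, 2 per group, coloured by group. Cacna1a and Cacna1b are the highest and Cacna1d is lowest or next to lowest in each group under both lengths.

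BDNF, under the control virus, raised 4 of the 8 alpha-1 genes (Cacna1a, Cacna1c, Cacna1d and Cacna1i), lowered 1 (Cacna1g) and left 3 short of the threshold (Cacna1b, Cacna1e and Cacna1h). Of all genes tested, 16.8% were called up and 14.6% down, at an adjusted p of 0.05. The median log2 fold change was 0.31 over the 8 genes and -0.01 over all genes. Changes ran from a 1.83-fold rise of Cacna1i to a 1.38-fold fall of Cacna1g, both T-type genes.

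Of the release channels, Cacna1a RNA was 159 and 165 CPM in Control and 249 and 250 CPM in BDNF. The groups were far apart relative to the spread within them. Cacna1a rose by 50.4% (log2 fold change 0.59, SE 0.056, adjusted p = 9.71e-07). Cacna1b was at 176 and 181 CPM in Control and 204 and 189 CPM in BDNF, a log2 fold change of 0.11 with a 95% interval of -0.04 to 0.25 (adjusted p = 0.251). Cacna1e was at 124 and 120 CPM in Control and 151 and 143 CPM in BDNF, a log2 fold change of 0.18 with an interval of 0.03 to 0.33 (adjusted p = 0.0615). For both, the BDNF samples lay above the Control samples, but the difference did not pass the test. Once length and GC content of the transcripts were corrected for, both values were below 0, at -0.08 for Cacna1b and -0.12 for Cacna1e, whereas Cacna1a stayed called at 0.48. Other settings called Cacna1e up, at 0.31 with replicate 3 in place of replicate 1 (adjusted p = 0.00544), 0.26 with all 10 libraries, the contained ones taken as replicates (adjusted p = 0.00200) and 0.19 with a stricter filter (adjusted p = 0.0486), and with all 10 libraries Cacna1b was called too (0.16, adjusted p = 0.0206).

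Of the L-type genes, Cacna1c was at 60.3 and 68.0 CPM in Control and 95.9 and 88.1 CPM in BDNF. Its groups did not overlap. It rose 1.41-fold (log2 fold change 0.49, SE 0.074, adjusted p = 9.70e-05), and with the length and GC correction the value was 0.22 (adjusted p = 0.0305). Cacna1d, the L-type pore that opens at lower voltages, was at 29.0 and 25.4 CPM in Control and 40.8 and 37.1 CPM in BDNF. It rose 1.352-fold (log2 fold change 0.43, SE 0.11, adjusted p = 0.00614). Here too every BDNF sample was above every Control sample. Leaving out 1 library leaves its group with a lone sample, which is then assumed to vary like the samples of the other groups. The Cacna1d call ended without Control replicate 2 (0.34, adjusted p = 0.0579) and with the length and GC correction (0.23, adjusted p = 0.128).

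The T-type genes went different ways. Cacna1i was at 63.1 and 74.6 CPM in Control and 136 and 119 CPM in BDNF, a 1.83-fold rise (log2 fold change 0.87, SE 0.094, adjusted p = 3.55e-06). Cacna1g was at 51.2 and 55.0 CPM in Control and 42.3 and 34.8 CPM in BDNF, a 1.38-fold fall (log2 fold change -0.47, SE 0.11, adjusted p = 0.00361). Neither gene's groups overlapped, and both calls were kept without each library in turn and with the length and GC correction (0.72 and -0.60). Cacna1h was at 70.3 and 81.8 CPM in Control and 84.3 and 60.3 CPM in BDNF. Its BDNF samples lay on either side of the Control samples, and the log2 fold change was -0.09 with a 95% interval of -0.33 to 0.15 (adjusted p = 0.577). Without BDNF replicate 1 Cacna1h was called down (-0.33, adjusted p = 0.00824), and without BDNF replicate 2 it was at 0.13.

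**Figure D2:**
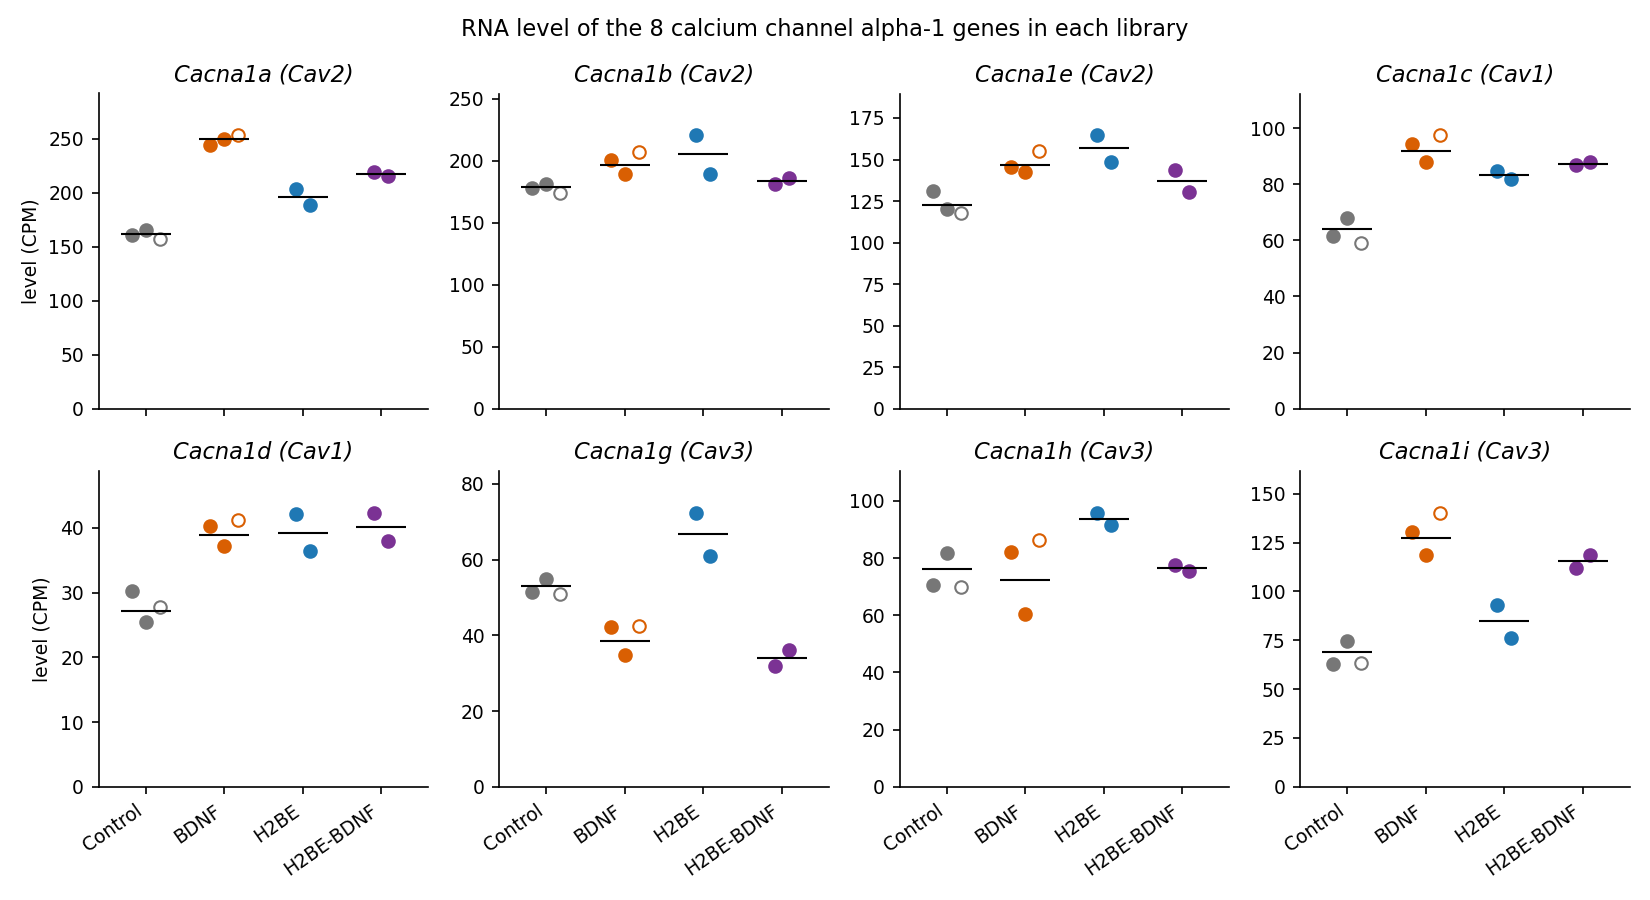
RNA level (CPM, linear axis from 0) of the 8 alpha-1 genes in each library of the 4 groups; open points are replicates 3 of Control and BDNF, whose counts are contained in replicate 1, and the line is the mean over the 2 samples of a group. Cacna1a and Cacna1i are higher and Cacna1g is lower in both BDNF groups than in the group with the same virus and no BDNF.

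With the H2BE virus, BDNF raised 1 alpha-1 gene (Cacna1i), lowered 1 (Cacna1g) and left 6 short of the threshold. Of all genes, 13.4% were called up and 12.3% down. The median log2 fold change was -0.07 over the 8 genes and 0.00 over all genes.

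Cacna1i was at 93.1 and 76.1 CPM in H2BE and 112 and 119 CPM in H2BE-BDNF. It rose 1.347-fold (log2 fold change 0.43, SE 0.099, adjusted p = 0.00439). That call ended without H2BE replicate 3 (0.30, adjusted p = 0.0697), the library with the lower Cacna1i level of its group. Cacna1g was at 72.4 and 61.1 CPM in H2BE and 31.98 and 36.2 CPM in H2BE-BDNF, a 1.99-fold fall. The log2 fold change was -0.99 (SE 0.12, adjusted p = 1.41e-05), and it was kept without each library in turn and with the length and GC correction (-0.89).

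Cacna1a was at 203 and 189 CPM in H2BE and 219 and 215 CPM in H2BE-BDNF, a log2 fold change of 0.14 with a 95% interval of 0.02 to 0.27 (adjusted p = 0.0893). The samples did not overlap, and with the length and GC correction Cacna1a was called up (0.25, adjusted p = 0.00218). Cacna1c was at 84.8 and 81.8 CPM against 86.9 and 87.9 CPM, a log2 fold change of 0.06 (interval -0.10 to 0.23). Cacna1d was at 42.2 and 36.4 CPM against 42.4 and 38.0 CPM, a log2 fold change of 0.02 (interval -0.22 to 0.27). The direct test of these responses against those under the control virus is given below.

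The other genes were lower with BDNF under this virus without passing the test. Cacna1b was at 221 and 189 CPM in H2BE and 182 and 186 CPM in H2BE-BDNF (log2 fold change -0.17, interval -0.32 to -0.02, adjusted p = 0.0901). Cacna1e was at 165 and 149 CPM against 143 and 130 CPM (-0.20, interval -0.36 to -0.05, adjusted p = 0.0525). Cacna1h was at 95.9 and 91.5 CPM against 77.6 and 75.5 CPM (-0.30, interval -0.55 to -0.05, adjusted p = 0.0767). For each of the 3 genes all H2BE samples were above all H2BE-BDNF samples. Whether these genes were called depended on the libraries and settings. Cacna1e was called down without BDNF replicate 1 (adjusted p = 0.0278), BDNF replicate 2 (0.0286), H2BE replicate 3 (0.0390) or H2BE-BDNF replicate 2 (0.0474). Cacna1b was called down without BDNF replicate 1 (0.0447), BDNF replicate 2 (0.0464) or H2BE replicate 3 (0.0169), and Cacna1h without BDNF replicate 1 (0.00563) or BDNF replicate 2 (0.00573). With only the H2BE and H2BE-BDNF libraries fitted, all 3 were called, at adjusted p = 0.0309 for Cacna1b, 0.0148 for Cacna1e and 0.00163 for Cacna1h. With the length and GC correction none of them was called. The values were then -0.11 for Cacna1b (adjusted p = 0.267), -0.17 for Cacna1e (0.114) and -0.17 for Cacna1h (0.295).

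The BDNF responses under the 2 viruses were then compared directly, as a difference of differences on the log2 scale. All 8 values were below 0, from -0.52 for Cacna1g to -0.21 for Cacna1h, and 1 of them, that of Cacna1a, passed the test. Of all genes, 0.327% were called up and 0.825% down in this test. The median was -0.42 over the 8 genes, -0.01 over all genes and -0.24 over the 901 genes at least as long as Cacna1a.

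For Cacna1a the difference was -0.45 (SE 0.081, adjusted p = 0.0264), which sets a BDNF response of 0.59 under the control virus beside 0.14 under the H2BE virus. That call ended with the length and GC correction (-0.23, adjusted p = 0.298). It also ended without Control replicate 1 (-0.42, adjusted p = 0.253), H2BE replicate 2 (-0.39, adjusted p = 0.193), H2BE-BDNF replicate 2 (-0.46, adjusted p = 0.0697) or H2BE-BDNF replicate 3 (-0.43, adjusted p = 0.105). Cacna1c was at -0.43 (95% interval -0.66 to -0.20, adjusted p = 0.0655) and Cacna1e at -0.38 (interval -0.60 to -0.17, adjusted p = 0.0800). Both were called without BDNF replicate 1 (adjusted p = 0.0390 and 0.0375) or BDNF replicate 2 (0.0247 and 0.0477). Cacna1g was at -0.52 (interval -0.86 to -0.18, adjusted p = 0.128) and Cacna1i at -0.44 (interval -0.74 to -0.15, adjusted p = 0.128), and both were called without BDNF replicate 2 (adjusted p = 0.0222 and 0.0400). Cacna1d was at -0.41 (interval -0.75 to -0.08), Cacna1b at -0.28 (interval -0.49 to -0.07) and Cacna1h at -0.21 (interval -0.56 to 0.14). The smaller rise of Cacna1i and the larger fall of Cacna1g under the H2BE virus therefore did not pass a test of the difference. With all 10 libraries as replicates 7 of the 8 differences were called, all but that of Cacna1h. With no filter 5 were, those of Cacna1a, Cacna1c, Cacna1e, Cacna1g and Cacna1i. The length and GC correction called 0 of the 8. It brought the difference to -0.29 for Cacna1g, -0.18 for Cacna1d, -0.17 for Cacna1i and -0.12 for Cacna1c. Cacna1e was then at -0.05, Cacna1b at -0.03 and Cacna1h at 0.03.

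Without BDNF, all 8 alpha-1 genes had higher RNA with the H2BE virus than with the control virus. Of these, 4 were called up (Cacna1a, Cacna1c, Cacna1d and Cacna1e) and 0 down. Of all genes, 1.33% were called up and 0.803% down. The log2 fold changes ran from 0.20 for Cacna1b to 0.48 for Cacna1d, with a median of 0.33 over the 8 genes and 0.00 over all genes. This comparison shares its Control and H2BE samples with the BDNF comparisons above.

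Cacna1d was at 29.0 and 25.4 CPM in Control and 42.2 and 36.4 CPM in H2BE (log2 fold change 0.48, SE 0.12, adjusted p = 0.0452). Cacna1c was at 60.3 and 68.0 CPM against 84.8 and 81.8 CPM (0.38, SE 0.079, adjusted p = 0.0246). For both L-type genes the H2BE samples lay above the Control samples. Among release channels, Cacna1e was at 124 and 120 CPM in Control and 165 and 149 CPM in H2BE (0.32, SE 0.073, adjusted p = 0.0347). Cacna1a was at 159 and 165 CPM against 203 and 189 CPM (0.27, SE 0.059, adjusted p = 0.0290), and Cacna1b was at 176 and 181 CPM against 221 and 189 CPM (0.20, 95% interval 0.05 to 0.35, adjusted p = 0.137). The T-type genes were close to each other in size of change, none of them called. Cacna1g was at 0.35 (interval 0.11 to 0.58, adjusted p = 0.103), Cacna1i at 0.34 (interval 0.12 to 0.56, adjusted p = 0.0929) and Cacna1h at 0.32 (interval 0.07 to 0.57, adjusted p = 0.158).

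These calls changed with the libraries fitted. When a Control or H2BE library is left out, that group has 1 sample and the spread comes from the other groups. Without Control replicate 1, H2BE replicate 2 or H2BE replicate 3, 0 of the 8 genes were called by edgeR, and without Control replicate 2 only Cacna1c was (0.44, adjusted p = 0.0333). With a library left out, the log2 fold change of Cacna1a was 0.25 (Control replicate 1), 0.29 (Control replicate 2), 0.22 (H2BE replicate 2) and 0.32 (H2BE replicate 3), at adjusted p = 0.342, 0.0746, 0.349 and 0.0521. Those of Cacna1d were 0.64, 0.39, 0.37 and 0.58 in the same order, at adjusted p = 0.269, 0.152, 0.437 and 0.0685. Cacna1e was at 0.39, 0.27, 0.24 and 0.39, at adjusted p = 0.269, 0.143, 0.393 and 0.0521. Cacna1c was at 0.30 without Control replicate 1 (adjusted p = 0.411), 0.36 without H2BE replicate 2 (0.279) and 0.40 without H2BE replicate 3 (0.0755). BDNF replicates 1 and 2 are in neither group compared, but they enter the shared filter, scaling and estimate of spread. Without BDNF replicate 1 or BDNF replicate 2, the log2 fold changes were 0.353 and 0.354 for Cacna1g, 0.327 and 0.328 for Cacna1h, and 0.348 and 0.349 for Cacna1i. With only the Control and H2BE libraries fitted all 8 were called, with adjusted p = 0.0262 for Cacna1b, and with no filter 7 were, all but Cacna1b.

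The alpha-1 transcripts are long, and change moved with length in these libraries. The 901 tested genes at least as long as Cacna1a had a median log2 fold change of 0.15 in H2BE against Control, with 10.8% called up and 0 down. In BDNF against Control their median was 0.19, with 41.2% called up, and in the difference of BDNF responses it was -0.24, with 8.55% called down. For each library, the deviation of each gene's log2 level from its mean over all 10 libraries was regressed on length. The slope, which is relative to the other libraries, ran from -0.073 to -0.033 per doubling in Control and from 0.022 to 0.049 in BDNF. It was 0.025 and 0.024 in H2BE and 0.0017 and -0.0043 in H2BE-BDNF. With a correction for length and GC content, the H2BE values of the 8 genes were still all above 0, from 0.04 for Cacna1b to 0.32 for Cacna1d, and 0 were called. The corrected values of the genes called above were 0.12 for Cacna1a (adjusted p = 0.361), 0.17 for Cacna1c (0.376), 0.32 for Cacna1d (0.272) and 0.09 for Cacna1e (0.651). By the same correction the genes called over the whole table went from 287 to 19. Whether the length trend arose in the cells or in the preparation was not tested.

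**Figure D3:**
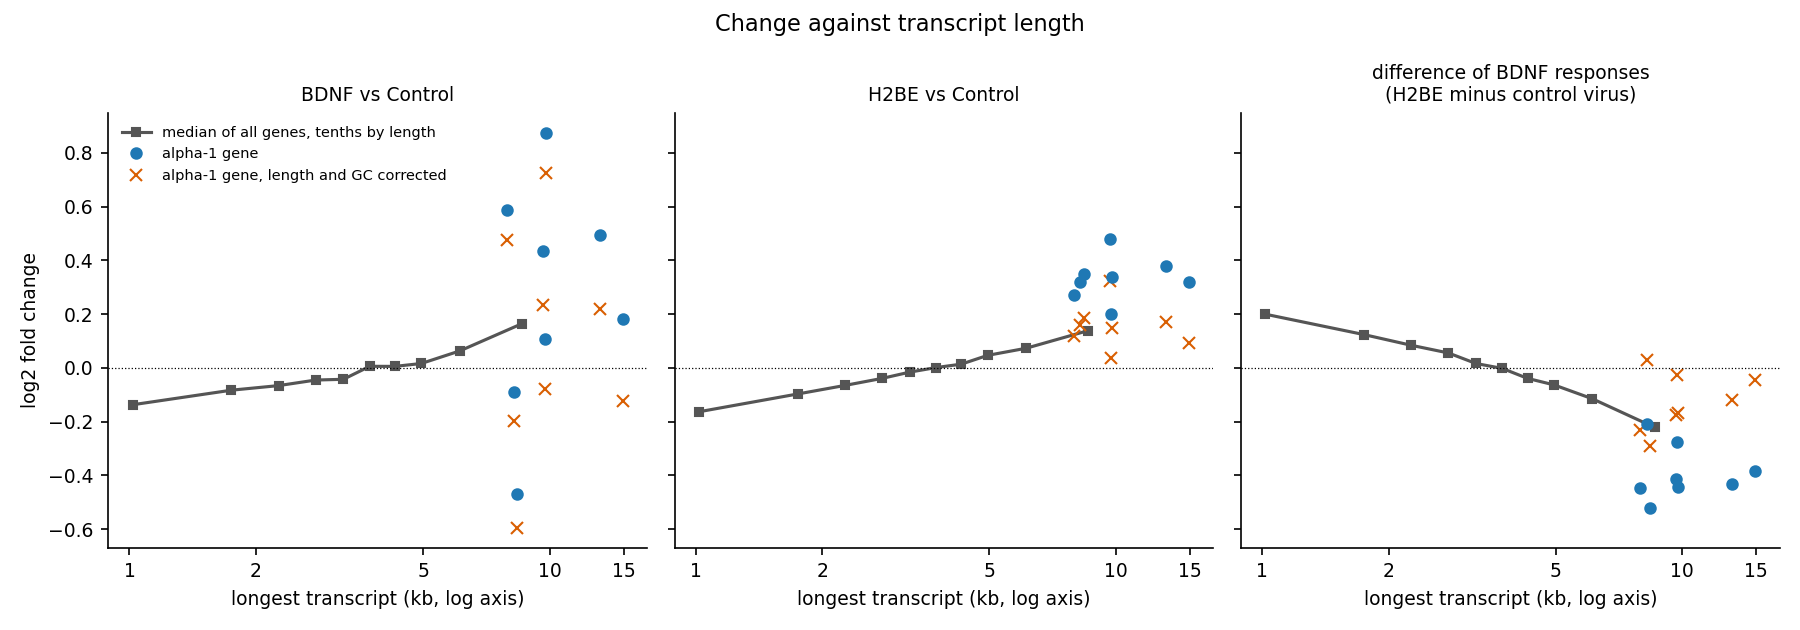
Log2 fold change against the longest transcript (kb, log axis) in 3 comparisons; grey squares are medians of all tested genes in 10 groups by length, blue points the 8 alpha-1 genes and orange crosses the same genes after the length and GC correction. In H2BE against Control the alpha-1 genes lie at 0.20 to 0.48 before and 0.04 to 0.32 after the correction. The longest of the 10 groups has a median of 0.14 before the correction, as drawn, and 0.016 after it.

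In the presence of BDNF 0 of the 8 alpha-1 genes passed the edgeR test between the viruses, and 0.0223% of all genes (3 genes) were called in either direction. At an unadjusted edgeR p under 0.05 there was 1 of the 8, Cacna1a, beside 1533 of the 13452 genes tested. DESeq2 also called 0 of the 8 at the adjusted threshold. Cacna1a was at 249 and 250 CPM in BDNF and 219 and 215 CPM in H2BE-BDNF (log2 fold change -0.18, 95% interval -0.30 to -0.06, adjusted p = 0.265). Both H2BE-BDNF samples lay below both BDNF samples, on the opposite side from the comparison without BDNF. The other log2 fold changes ran from -0.17 for Cacna1g (interval -0.42 to 0.07) to 0.11 for Cacna1h (interval -0.13 to 0.36). The L-type genes were at -0.05 (Cacna1c, interval -0.21 to 0.10) and 0.07 (Cacna1d, interval -0.16 to 0.29). Cacna1b was at -0.08 (interval -0.22 to 0.07), Cacna1e at -0.07 (interval -0.22 to 0.08) and Cacna1i at -0.11 (interval -0.30 to 0.09). Without BDNF replicate 1 Cacna1h was called up (0.35, adjusted p = 0.0264).

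**Figure D4:**
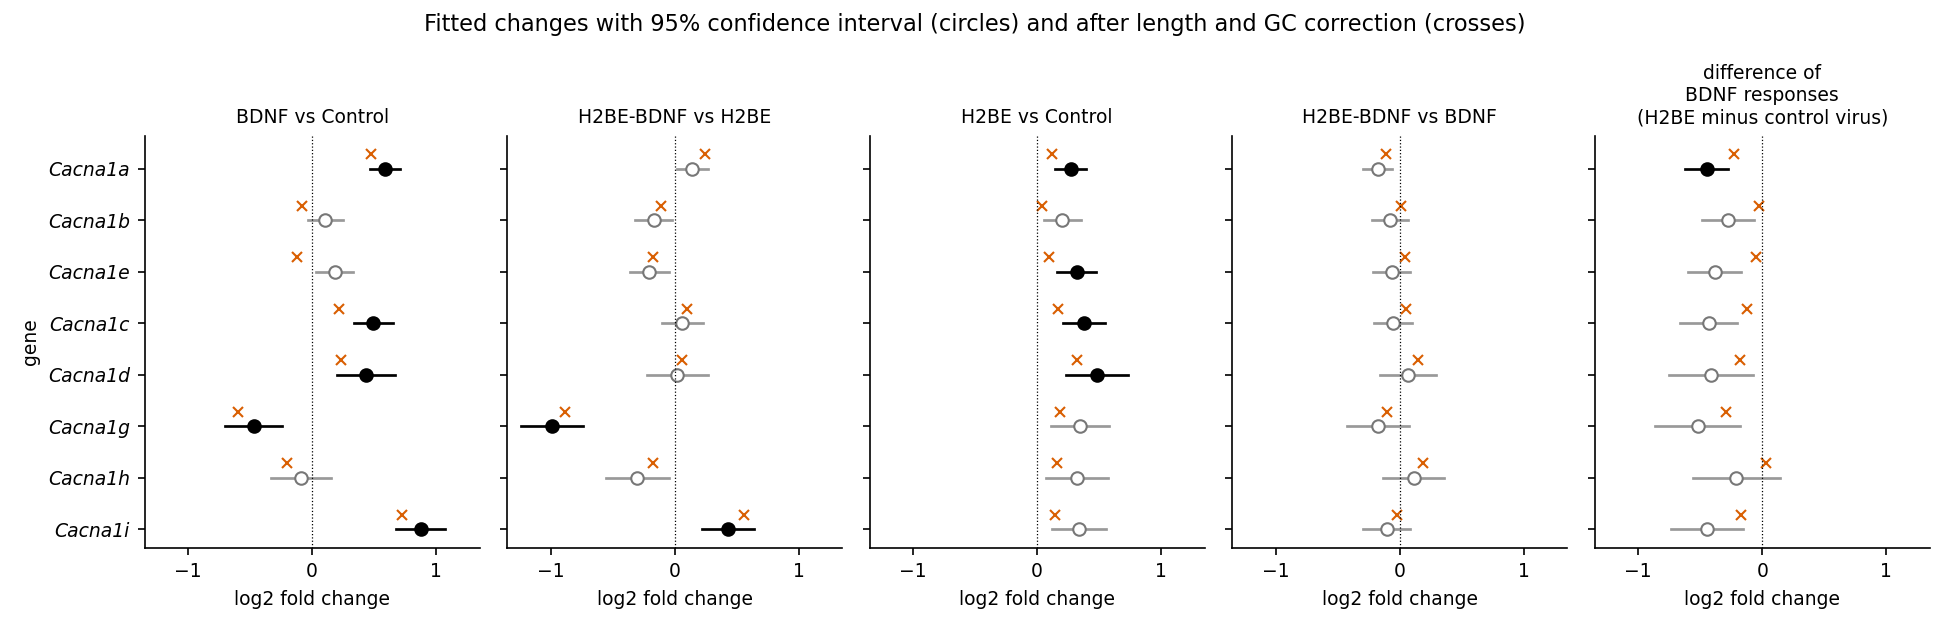
Log2 fold changes of the 8 alpha-1 genes in the 4 comparisons and in the difference of BDNF responses, with 95% confidence intervals; filled circles passed an adjusted p of 0.05 and orange crosses are the values after the length and GC correction. Cacna1g is lower and Cacna1i higher with BDNF under both viruses, and with the correction no gene is called in H2BE against Control.

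The alpha-1 genes were also compared with each other over the 8 distinct libraries. The Pearson correlation of log2 CPM was 0.95 between Cacna1a and Cacna1i, 0.92 between Cacna1a and Cacna1c, and 0.90 between Cacna1c and Cacna1i. Cacna1g ran against Cacna1i at -0.66 and with Cacna1h at 0.72. Cacna1b was closest to Cacna1e, at 0.81. These points share their libraries, their depth and the BDNF contrast, and the values are a description. Among 10405 genes averaging 5 CPM or more, the closest to Cacna1i were Shank3, a postsynaptic scaffold (0.996), Nav1 (0.991) and Nacc1 (0.987). Closest to Cacna1g were Phf24 (0.988), Adgrb2 (0.986) and Pcdhgc4 (0.986), and closest to Cacna1a were Cdc42bpa (0.994), Ttbk1 (0.994) and Pde4dip (0.993). For Cacna1c they were Unc13a, which primes synaptic vesicles (0.987), Ino80 (0.980) and Cpeb4 (0.975).

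The remaining pore genes of the family were barely present. Cacna1s, the skeletal muscle L-type pore, was at a mean of 1.32 CPM in Control and 2.44 CPM in BDNF (log2 fold change 0.95, 95% interval 0.17 to 1.74, adjusted p = 0.0606). Cacna1f, the retinal L-type pore, was at a mean of 0.187 CPM in Control and did not pass the filter on low counts.

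The partners of the pore were followed in lists of 72 genes, of which 63 were tested. Under the control virus BDNF raised 18 of them and lowered 16 (16.8% and 14.6% of all genes were), and 10 and 11 of these kept their call without each library in turn. Under the H2BE virus 10 rose and 20 fell (13.4% and 12.3% of all genes did), and 3 and 11 kept their call. The median log2 fold change was 0.05 under the control virus and -0.11 under the H2BE virus, beside -0.01 and 0.00 over all genes. Each rise or fall with BDNF that is given below for a single partner gene kept its call without each library in turn.

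All 4 beta subunit genes were tested, and with BDNF 1 rose and 2 fell under each virus. Cacnb4 was at 100 and 112 CPM in Control and 158 and 178 CPM in BDNF, and it rose by 0.64 on the log2 scale (adjusted p = 9.76e-06). Under the H2BE virus Cacnb4 rose by 0.44 (adjusted p = 0.00077). Cacnb3 was at 101 CPM in both Control samples and 79.3 and 81.4 CPM in BDNF, and it fell by 0.37 (adjusted p = 0.000593), and under the H2BE virus by 0.51 (adjusted p = 9.58e-05). Of 3 alpha2delta genes tested 1 rose and 1 fell under each virus. Cacna2d3 was at 52.0 and 46.8 CPM in Control and 72.0 and 70.4 CPM in BDNF, a rise of 0.50 (adjusted p = 0.000115). Cacna2d1, a binding site of gabapentin, fell by 0.41 under the H2BE virus (adjusted p = 0.000711). Of 6 gamma and related genes, most of which escort AMPA receptors rather than calcium channels, 2 rose and 1 fell under the control virus and 2 rose and 2 fell under the H2BE virus. Cacng8 rose by 0.82 (adjusted p = 6.75e-05) and Cacng4 fell by 0.51 (adjusted p = 0.000115) under the control virus.

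Channel sensors and tethers included both directions. Of 8 sensor and adaptor genes 1 rose and 3 fell under the control virus and 0 rose and 3 fell under the H2BE virus. Of 7 genes that tether channels at release sites 2 rose and 2 fell under the control virus, and 0 rose and 3 fell under the H2BE virus. Rims2 rose by 0.59 (adjusted p = 0.00013) and Rims1 by 0.37 (adjusted p = 0.00301) under the control virus, and both bind release channels directly. Rimbp2, which links them to the channel, was at 111 and 108 CPM in Control and 79.3 and 81.3 CPM in BDNF. It fell by 0.49 (adjusted p = 3.17e-05), and by 0.71 under the H2BE virus (adjusted p = 2.19e-06). Of 3 RGK GTPases, which inhibit the channels, 1 rose and 1 fell under the control virus and 1 rose under the H2BE virus, where Gem went from a mean of 0.677 to 4.27 CPM (log2 fold change 2.67, adjusted p = 0.000335).

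**Figure D5:**
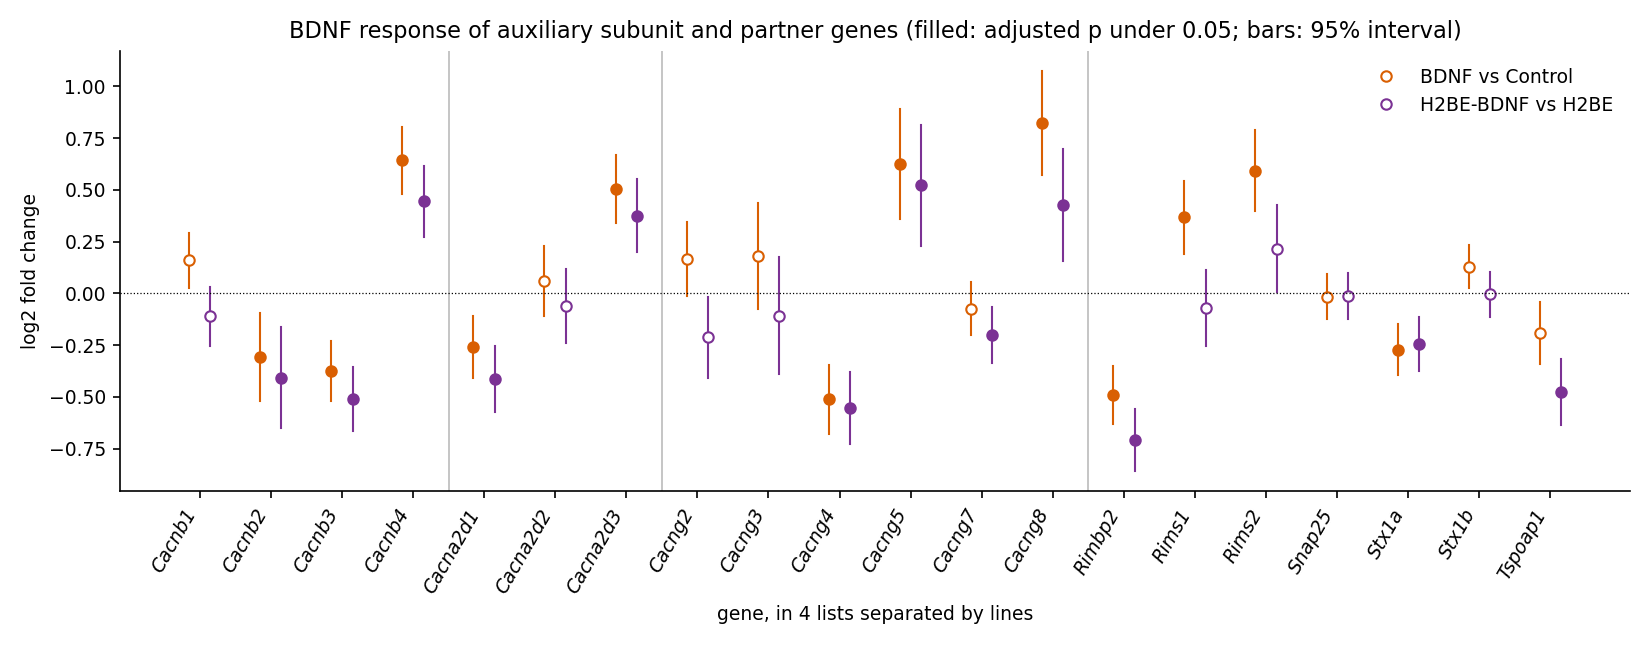
Log2 fold change with BDNF of beta, alpha2delta and gamma subunit genes and release-site tethers under the control virus (orange) and the H2BE virus (purple); bars are 95% intervals and filled points passed an adjusted p of 0.05. Cacnb4 and Cacna2d3 lie above 0 and Cacnb3 and Rimbp2 below 0 under both viruses.

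Genes that move calcium elsewhere, or answer to it, completed the lists. Of 5 store release channels 4 rose and 0 fell under the control virus and 1 rose under the H2BE virus. Itpr1, the main neuronal IP3 receptor, went from a mean of 50.7 to 93.1 CPM (log2 fold change 0.84, adjusted p = 4.64e-05). Of 5 store-operated entry genes 2 rose under each virus, among them Orai2, a pore of that pathway (0.72, adjusted p = 2.00e-05, and 0.65, adjusted p = 0.000161). Of 5 calcium pumps 1 fell under the control virus and 4 under the H2BE virus. Atp2b4, which expels calcium across the cell membrane, fell by 0.81 (adjusted p = 0.000121) and 0.98 (adjusted p = 4.30e-05). Of 5 calcium-activated potassium channel genes 2 rose and 1 fell under the control virus, and 0 rose and 2 fell under the H2BE virus. Of 11 signalling genes 2 rose and 4 fell under the control virus and 2 rose and 3 fell under the H2BE virus, with Camk2a falling by 0.36 (adjusted p = 0.000306) and 0.69 (adjusted p = 9.80e-07).

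With the H2BE virus alone 2 of the 63 partner genes rose and 0 fell (1.33% and 0.803% of all genes did), with a median log2 fold change of 0.08. They were Kcnma1, the BK channel that is often coupled to calcium channels (0.37, adjusted p = 0.0407), and Camk2a (0.31, adjusted p = 0.0188). Neither kept its call with the length and GC correction (adjusted p = 0.306 and 0.0848). Both calls ended without Control replicate 1 or H2BE replicate 2, that of Kcnma1 also without H2BE replicate 3 and that of Camk2a also without Control replicate 2. All 4 beta and 3 alpha2delta genes were uncalled there, at medians of 0.08 and 0.15. In the difference of BDNF responses Calm2 was higher (0.32, adjusted p = 0.0444) and Kcnma1 lower (-0.55, adjusted p = 0.0431), and both calls ended with the correction (adjusted p = 0.550 and 0.373) and without Control replicate 1, H2BE replicate 2 or either H2BE-BDNF library, that of Calm2 also without Control replicate 2 and that of Kcnma1 also without H2BE replicate 3.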

How the data were processed

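PolyA RNA libraries were made with the NEBNext Ultra II RNA kit, per the labels' protocols. Per the submitters' processing notes, deepTools, DESeq2 and SAMtools were used with build mm10, with no version named. The aligner, counter and strand setting were not given in the sources used here. Deposited by the authors were raw counts for 48526 genes, and a signal table of normalized counts for 21862 genes, in which each library's counts are divided by 1 size factor. That deposited table served for gene symbols only. Control replicate 3 (73.7% of the counts of replicate 1) and BDNF replicate 3 (61.9%) are contained in replicate 1. Tests used the larger of each pair, which leaves 8 distinct libraries, and levels average the CPM of the pair as 1 sample.

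Genes passing filterByExpr (minimum count 10, minimum total 15; 13452 genes, 99.8% of counts) were scaled by TMM and tested with edgeR's quasi-likelihood test in R 4.3.3 (limma 3.58.1, edgeR 4.0.16) with a mean per group, Benjamini-Hochberg adjusted over all genes in each comparison. Adjusted p-values are from edgeR unless DESeq2 (1.42.0) is named, and intervals are 95%. In CPM, 3 counts equal 0.212 at the greatest depth and 0.593 at the least. The script was tested on simulated data. Lengths are from GENCODE M21. To correct for length and GC, each library's offsets came from lowess curves (span 0.3). Alternatives were other scaling, tests, filters and library sets, a replicate block, and each library left out.

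Named were the 8 members, H2bc21, markers, the 3 genes closest (log2 CPM, prior count 2, mean of 5 CPM or more) to each of the 4 members with the largest BDNF changes and, from each list and comparison, up to 4 called genes of smallest p, or any gene where 5 or fewer were tested. The members and lists were chosen with earlier results of these data known. Values of a further listed gene are not reported here.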

Additional observations from a re-analysis of the deposited data

Results flagged for a closer look

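Cacna1a was the alpha-1 gene whose BDNF response differed between the viruses by a direct test. The difference, H2BE virus minus control virus, was -0.45 on the log2 scale (edgeR adjusted p = 0.0264). The response was 0.59 under the control virus and 0.14 under the H2BE virus. With the length and GC correction the difference was -0.23 (adjusted p = 0.298), and it was -0.42 without Control replicate 1 (adjusted p = 0.253) and -0.39 without H2BE replicate 2 (adjusted p = 0.193). Of the H2BE-BDNF libraries, leaving out replicate 2 gave -0.46 (adjusted p = 0.0697) and leaving out replicate 3 gave -0.43 (adjusted p = 0.105).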

How the results depend on the processing

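Cacna1a, Cacna1c, Cacna1g and Cacna1i kept their BDNF calls under the control virus, and Cacna1g also under the H2BE virus, in all alternatives that were run. With 2 samples per group and 5058074 to 14142545 counts per library, changes near 0.3 on the log2 scale lay at the edge of what was called. The H2BE calls and the Cacna1a difference depended on the settings below, and the cause was not tested.

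The number of the 8 alpha-1 genes called was 5 (BDNF vs Control), 2 (H2BE-BDNF vs H2BE), 4 (H2BE vs Control), 0 (H2BE-BDNF vs BDNF) and 1 (difference of responses), with 4225, 3466, 287, 3 and 155 genes called over the table. Leaving out each library gave 4 to 6, 2 to 5, 0 to 7, 0 to 1 and 0 to 5 alpha-1 genes, and 2278 to 4499, 1818 to 4157, 2 to 890, 1 to 764 and 0 to 897 genes. The DESeq2 test called 2680 genes for BDNF vs Control, 10 for H2BE-BDNF vs BDNF and 2 alpha-1 genes for the difference, where adjusted p was not given for Cacna1d and Cacna1g, nor for Cacna1d in H2BE vs Control. With no filter, 4 alpha-1 genes were called for H2BE-BDNF vs H2BE, 7 (559 genes) for H2BE vs Control and 5 (440 genes) for the difference, and 216 genes for H2BE-BDNF vs BDNF. With all 10 libraries as replicates there were 6465 genes for BDNF vs Control, 7 alpha-1 genes (1611 genes) for H2BE vs Control, 24 genes for H2BE-BDNF vs BDNF and 7 alpha-1 genes (1169 genes) for the difference. With replicate 3 in place of replicate 1 there were 1 gene for H2BE-BDNF vs BDNF and 3 alpha-1 genes (349 genes) for the difference. With only the groups compared in the fit there were 5 alpha-1 genes for H2BE-BDNF vs H2BE, 8 (1130 genes) for H2BE vs Control, and 1 gene for H2BE-BDNF vs BDNF. The length and GC correction called 0 alpha-1 genes (19 genes) for H2BE vs Control and 0 (5 genes) for the difference.

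The labels do not say that a replicate number is shared between groups. Differences between same-numbered libraries of 2 groups were weakly and negatively correlated (-0.17, -0.30, -0.28 and -0.24 over 13452 genes). The values of -0.28 and -0.24 used replicate 3 of Control or BDNF, whose counts are contained in replicate 1. With the replicate block 4 alpha-1 genes were called for H2BE-BDNF vs H2BE, 2 (140 genes) for H2BE vs Control and 2 (245 genes) for the difference, and 119 genes for H2BE-BDNF vs BDNF. With the block and replicate 3 in place of replicate 1 there were 48 genes for H2BE-BDNF vs BDNF and 3 alpha-1 genes (344 genes) for the difference. With the block and the length and GC correction there were 0 alpha-1 genes (22 genes) for H2BE vs Control, 94 genes for H2BE-BDNF vs BDNF and 0 alpha-1 genes (22 genes) for the difference. With crossed numbers, chosen after seeing the data, the block called 5, 3 and 0 alpha-1 genes for BDNF vs Control, H2BE-BDNF vs H2BE and the difference, and 0 genes over the table in the last.

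Direction turned only for uncalled values. In BDNF vs Control, Cacna1h was 0.042 with all 10 libraries, Cacna1b was -0.078 and Cacna1e -0.12 with the length and GC correction, and -0.075 and -0.11 with the block added. In H2BE-BDNF vs BDNF, Cacna1e was 0.042 with the replicate block, Cacna1b, Cacna1c and Cacna1e were 0.0082, 0.050 and 0.045 with the correction, and 0.080, 0.075 and 0.18 with the block added. In the difference Cacna1h was 0.027 with the correction, with and without the block. With each library left out in turn, values ran from -0.43 to 0.027 for Cacna1h in the difference, -0.33 to 0.13 for Cacna1h in BDNF vs Control, -0.10 to 0.35 for Cacna1h in H2BE-BDNF vs BDNF, -0.074 to 0.14 for Cacna1d in H2BE-BDNF vs H2BE, -0.019 to 0.14 for Cacna1d in H2BE-BDNF vs BDNF and -0.14 to 5.86e-05 for Cacna1e in H2BE-BDNF vs BDNF.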
